A study of Pimephales promelas with 12 samples.

Results

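Gut was compared with hypothalamus in adult male fathead minnows (FHM), a small cyprinid fish used in toxicity testing. The comparison took the 3 gut libraries and the 3 hypothalamus libraries of the 12 RNA-seq libraries of the study, and all contigs of their count lists. Of the 46309 contigs counted in the whole series, 45098 had a count in at least 1 of these 6 libraries. A contig here is any named sequence of these lists, assembled or not, and several may stand for the same transcript. A contig missing from a library's list was set to 0.

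All fish were adult males with no exposure named in the labels, and they were killed in the anaesthetic MS-222. The 12 libraries come from 4 tissues of 3 individual fish: gut, liver, hypothalamus and telencephalon. The sources do not say which stretch of the gut was taken. RNA came from tissue and not from sorted cells, so that fewer cells of a type and less RNA per cell cannot be told apart.

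The gut digests food and takes up nutrients, mainly through enterocytes, the absorptive cells of its lining, with mucus-secreting goblet cells, hormone-secreting cells, smooth muscle and immune cells around them. The hypothalamus is a region of the forebrain made of neurons and glia, and its neurosecretory neurons control the pituitary and, through it, growth, stress and reproduction. Both tissues also hold blood vessels and blood, and the gut has neurons of its own in the enteric nervous system. The comparison asks which transcripts mark a digestive tissue and which a neuroendocrine tissue of the same fish.

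The contigs carry assembly names and are not paired with gene names, so the defining markers of enterocytes or of hypothalamic neurons could not be looked up, and the tissue labels were not checked in that way. What follows describes how the RNA of these tissues differed in number, size and abundance of contigs. It also describes how the contigs that differed behaved in liver and telencephalon. At most 2 contigs per direction are given by name, and others by their rank or count.

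The 3 gut libraries held 19630572, 20801155 and 19301093 counts, against 20950303, 22589095 and 18845704 in the 3 hypothalamus libraries, in the order of the replicate numbers. A count was present on 38046 to 38295 contigs in gut and on 38922 to 40462 in hypothalamus. Counts were scaled by TMM, a method that sets aside the most extreme contigs when it matches libraries, and are given as CPM, counts per 1000000. The scaling factors were 0.843 to 0.862 in gut and 1.04 to 1.29 in hypothalamus. A level of 3 counts in a library corresponded to 0.171 to 0.181 CPM in gut and 0.111 to 0.131 CPM in hypothalamus. These floors cover counting error only, since reads left after the removal of likely PCR duplicates may still include copies of a molecule.

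Replicates within a tissue lay much closer to each other than to the other tissue. Over the 22567 contigs that reached 50 counts in 3 or more of the 6 libraries, Pearson's r of log2(CPM + 1) across contigs was 0.938 to 0.962 among gut libraries and 0.889 to 0.929 among hypothalamus libraries. Between a gut and a hypothalamus library it was 0.334 to 0.435. A contig could enter this set through the 3 libraries of a single tissue, so the set favours contigs that differ between the tissues. How far this lowered r between the tissues was not tested. Contigs are not independent replicates, and these values are descriptive. The hypothalamus libraries varied more on this scale. The median SD of a contig over the 3 replicates was 0.259 on the log2 scale in gut and 0.379 in hypothalamus. An SD above 1 was seen for 3.96% of contigs in gut and 7.6% in hypothalamus. Contigs of this set can be low in either tissue, and the part of their level in these SDs was not tested.

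A large part of the contigs differed between gut and hypothalamus, and more of them were higher in hypothalamus. A contig could enter the test through liver or telencephalon alone. Some of those tested thus had no count in gut or hypothalamus and could not be called. Of 42878 contigs tested with edgeR's quasi-likelihood test, 13089 (30.5%) had a Benjamini-Hochberg adjusted p under 0.05. Of these, 5375 contigs (12.5% of those tested) were higher in gut and 7714 (18.0%) were higher in hypothalamus, so 41.1% of the calls were higher in gut. This split depends on the scaling: with library size alone 27.3% of calls were higher in gut, with upper quartile scaling 48.5% were, and with RLE 43.7%. With library size alone the median log2 fold change of gut over hypothalamus was -0.66, against -0.19 with TMM, over the 25228 contigs that averaged 50 counts or more in gut or in hypothalamus. At an unadjusted p under 0.05 there were 16989 contigs. Without the gut and hypothalamus libraries of replicate 3 the calls dropped to 7466, of which 3097 were higher in gut and 4369 in hypothalamus. That fit had 2 libraries per tissue.

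The direction of the called contigs was looked up in each fish, with each replicate number taken as a fish. Of the 5375 contigs higher in gut, 5343 were higher in gut in all 3 pairs of libraries with the same number, and of the 7714 higher in hypothalamus, 7674 were higher in hypothalamus in all 3 pairs. These contigs were called on the same libraries, so this is a description. Over all tested contigs, gut lay above hypothalamus in all 3 pairs for 26.6% and hypothalamus above gut for 31.9%. The CPM ranges of gut and hypothalamus did not overlap for 5314 contigs higher in gut and 7624 higher in hypothalamus. Among all tested contigs, called or not, gut lay entirely above hypothalamus for 20.1% and hypothalamus entirely above gut for 25.6%, 45.7% in all.

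Differences of 10-fold were more numerous on the hypothalamus side, and differences of 1000-fold on the gut side. With contigs at 0 in the other tissue set to the bound that 3 counts over its libraries allow, the median fold was 6.07 for contigs higher in gut and 9.52 for those higher in hypothalamus (2.60 and 3.25 on the log2 scale). Contigs with any count in the other tissue kept their fitted fold, which can exceed that bound. The numbers of large folds below include such contigs. At least 10-fold differences were seen for 1966 contigs higher in gut (4.59% of those tested) and 3765 higher in hypothalamus (8.78%). At least 100-fold differences were seen for 549 contigs higher in gut and 621 higher in hypothalamus. At least 1000-fold differences were seen for 98 contigs higher in gut and 6 higher in hypothalamus. The largest fold that could be measured differed by tissue. In hypothalamus 3 counts in a library were 0.111 to 0.131 CPM, and in gut 0.171 to 0.181 CPM. The bound used for contigs at 0 takes 3 counts over all libraries of a tissue, so it lies lower than these values. At 1000 CPM or more, 116 contigs were higher in gut and 19 in hypothalamus. The part of floor and abundance in the numbers of large folds was not tested. The smallest called difference was 0.62 on the log2 scale for gut and 0.55 for hypothalamus, and no smaller difference passed the test with 3 libraries per tissue.

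**Figure D1:**
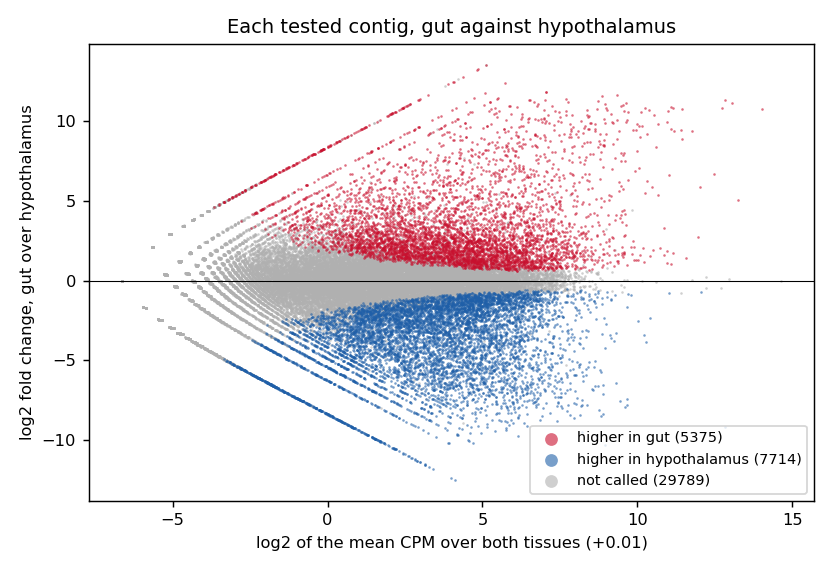
Log2 fold change of gut over hypothalamus (vertical axis) against the log2 of the mean CPM over both tissues (horizontal axis) for the 42878 tested contigs, one point per contig, red for higher in gut (5375), blue for higher in hypothalamus (7714) and grey for not called (29789). The streaks along the outer edges are contigs with few or no counts in one tissue, whose fitted fold change is not a measured size, and called contigs lie on both sides of 0.

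The contigs higher in gut held most of the counts of the gut libraries. They held 64.5%, 62.5% and 63.3% of the counts in the 3 gut libraries (63.4 ± 1.01, SD, n = 3), against 13.0%, 11.1% and 10.5% in the 3 hypothalamus libraries (11.5 ± 1.31). The contigs higher in hypothalamus were more numerous but held less of their tissue, with 6.02%, 5.96% and 5.66% of the counts in the 3 gut libraries (5.88 ± 0.193), against 43.1%, 48.4% and 48.3% in the 3 hypothalamus libraries (46.6 ± 3.03). Contigs with no called difference held 29.5% to 31.5% of gut counts and 40.5% to 43.8% of hypothalamus counts. These shares describe contigs that were chosen in the same libraries, so no test was made of them.

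**Figure D2:**
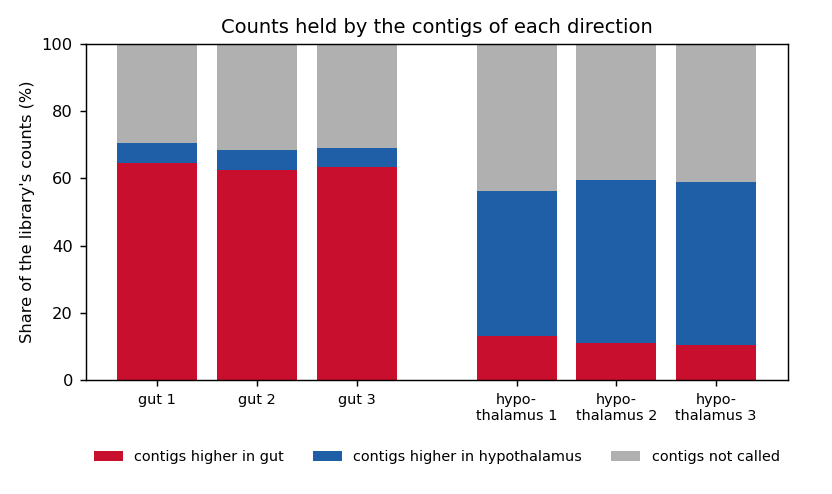
Share of each library's counts (vertical axis, percent) held by contigs higher in gut (red), contigs higher in hypothalamus (blue) and contigs not called (grey), as 1 stacked bar for each of the 3 gut and 3 hypothalamus libraries. Contigs higher in gut held 62.5% to 64.5% of the gut libraries, and contigs higher in hypothalamus held 43.1% to 48.4% of the hypothalamus libraries.

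Counts were concentrated on fewer contigs in gut. The 10 contigs with most counts in a library held 13.4%, 13.3% and 14.7% of gut counts and 8.56%, 11.1% and 8.53% of hypothalamus counts. The tissues did not overlap in this share, and an exact two-sided permutation test gave p = 0.1, the smallest value that 3 libraries against 3 allow. The test took the libraries as independent and did not pair those of a fish. The 100 contigs with most counts held 32.5 ± 0.929% of gut counts and 19.0 ± 2.51% of hypothalamus counts (SD, n = 3 each).

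The balance between the tissues turned with abundance. Contigs were grouped by their mean CPM in the tissue where it was higher. Classes and calls rest on the same libraries, so these shares are a description. Among the 12237 contigs under 1 CPM, 1.68% were higher in gut and 3.35% in hypothalamus. Among the 8356 contigs of 3 to 10 CPM, 12.4% were higher in gut and 21.2% in hypothalamus, and among the 5524 contigs of 30 to 100 CPM these shares were 24% in gut and 33.8% in hypothalamus. Up to this level more contigs were higher in hypothalamus than in gut in each class. Among the 2661 contigs of 100 to 1000 CPM, 42.1% were higher in gut and 34.5% in hypothalamus. Of the 145 contigs at 1000 CPM or more, 116 were higher in gut, 19 in hypothalamus and 10 were not called.

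Among the most abundant contigs, more were higher in gut under each of the 4 scalings. For the same 145 contigs, library size scaling gave 111 higher in gut and 22 in hypothalamus, and RLE and upper quartile scaling each gave 116 higher in gut and 15 in hypothalamus. In the class of 100 to 1000 CPM the order was turned round by library size scaling, with 948 contigs higher in gut and 1140 higher in hypothalamus.

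**Figure D3:**
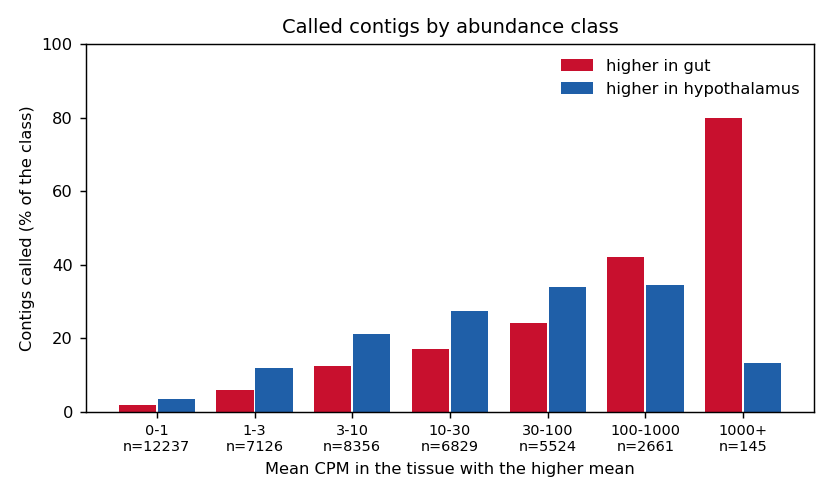
Percent of tested contigs called (vertical axis) in 7 classes of mean CPM in the tissue where the contig was higher (horizontal axis), as paired bars for higher in gut and higher in hypothalamus. The hypothalamus bars are taller up to the class of 30 to 100 CPM, and at 1000 CPM or more 80.0% of contigs were higher in gut and 13.1% in hypothalamus.

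Most of the contigs with most counts in gut were higher in gut, while the first 10 of the hypothalamus were mostly not called. Of the 10 contigs with most counts in gut, 8 were higher in gut and 2 were not called. Of the 10 with most counts in hypothalamus, 3 were higher in hypothalamus and 7 were not called. Among the first 100 of gut, 89 were higher in gut and 2 in hypothalamus, and among the first 100 of hypothalamus, 16 were higher in gut and 69 in hypothalamus. Over all tested contigs 12.5% were higher in gut and 18.0% in hypothalamus. Ranks and calls rest on the same libraries, so these counts are a description. The lists of gut and hypothalamus shared 2 of 10, 25 of 100 and 302 of 1000 contigs. In each tissue these ranks follow counts per contig, not counts per base, so a long transcript ranks higher than a short one of the same abundance.

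The contig with most counts in hypothalamus was the second in gut and did not pass the test. It had 406253, 459410 and 429472 counts in gut, against 588335, 811130 and 498695 in hypothalamus. After scaling, the log2 fold change of gut over hypothalamus was -0.03 (95% interval -0.57 to 0.52, edgeR adjusted p = 0.954). Another contig among the first 10 of both tissues, an isoform of 780 bases read on the PacBio instrument, had 80039, 165070 and 171900 counts in gut and 132613, 260283 and 168004 in hypothalamus. Its log2 fold change was 0.08 (95% interval -0.77 to 0.92, edgeR adjusted p = 0.912), and its replicates varied more than those of the first contig.

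One of the 10 contigs with most counts in gut had a hypothalamus library far from the other two. It had 94487, 152697 and 104285 counts in gut, against 64917, 9784 and 7705 in hypothalamus, where replicate 1 stood above the others. The log2 fold change was 2.71 (SE 0.78, edgeR adjusted p = 0.038). Gut still lay above hypothalamus in all 3 pairs.

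The contigs named here were taken by rule in each direction, as the largest fitted log2 fold change and the highest abundance among contigs with 50 counts or more in each replicate of the tissue where they were higher. A fitted value over a tissue at 0 is not a measured size, so contigs with counts in both tissues can have a larger measured fold. The named contigs were chosen on this comparison, so their gut and hypothalamus values are a description. The liver and telencephalon values come from libraries that did not choose them, though of the same fish. FHM_All_PTA_Assem.20405.C1 had the largest fitted log2 fold change on the gut side. It had 1005, 1148 and 1317 counts in gut and none in the 3 hypothalamus libraries. It averaged 68.5 ± 9.61 CPM in gut (SD, n = 3), 1670-fold the level that 3 counts over the hypothalamus libraries stand for (edgeR adjusted p = 1.29e-05). By counting error alone, the 95% interval of the ratio of gut to hypothalamus began at 1360-fold. In liver it had 189, 154 and 140 counts, and in telencephalon 0, 0 and 5. It was also called higher in liver than in telencephalon (log2 fold change 7.86, edgeR adjusted p = 0.000593).

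The contig with most counts in gut was low in the other tissues. FHM_All_PTA_Assem.750.C1 had 426796, 581986 and 694344 counts in gut, against 350, 539 and 537 in hypothalamus. It averaged 33600 ± 8000 CPM in gut and 19.8 ± 5.91 CPM in hypothalamus (SD, n = 3 each), a log2 fold change of 10.73 (SE 0.44, edgeR adjusted p = 4.24e-06). It had 11, 43 and 1428 counts in liver, where replicate 3 stood far above the others, and 787, 386 and 308 counts in telencephalon. Liver against telencephalon did not pass the test for it (log2 fold change 1.51, edgeR adjusted p = 0.51).

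On the hypothalamus side the largest fitted log2 fold change belonged to c1906/f11p2/1015, a PacBio isoform of 1015 bases. It had no count in the 3 gut libraries and 678, 1017 and 801 counts in hypothalamus. It averaged 34.4 ± 9.08 CPM in hypothalamus (SD, n = 3), 575-fold the level that 3 counts over the gut libraries stand for (edgeR adjusted p = 4.34e-05). By counting error alone, the 95% interval of the ratio of hypothalamus to gut began at 467-fold. It was present at a lower level in telencephalon, with 43, 132 and 103 counts, and nearly absent in liver, with 1, 0 and 1 counts. It was called lower in liver than in telencephalon (log2 fold change -5.53, edgeR adjusted p = 0.00145).

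FHM_All_PTA_Assem.1951.CB1 was the most abundant contig higher in hypothalamus. It had 441, 581 and 260 counts in gut, against 271515, 521069 and 266293 in hypothalamus, where replicate 2 was the highest. It averaged 25.1 ± 8.84 CPM in gut and 14600 ± 6580 CPM in hypothalamus (SD, n = 3 each), and the log2 fold change was -9.18 (SE 0.53, edgeR adjusted p = 9.83e-06). The telencephalon held it at a similar order, with 151035, 235118 and 216659 counts, and the liver had 354, 464 and 320 (log2 fold change of liver over telencephalon -7.61, edgeR adjusted p = 3.52e-06). Both brain regions lay far above both body tissues.

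**Figure D4:**
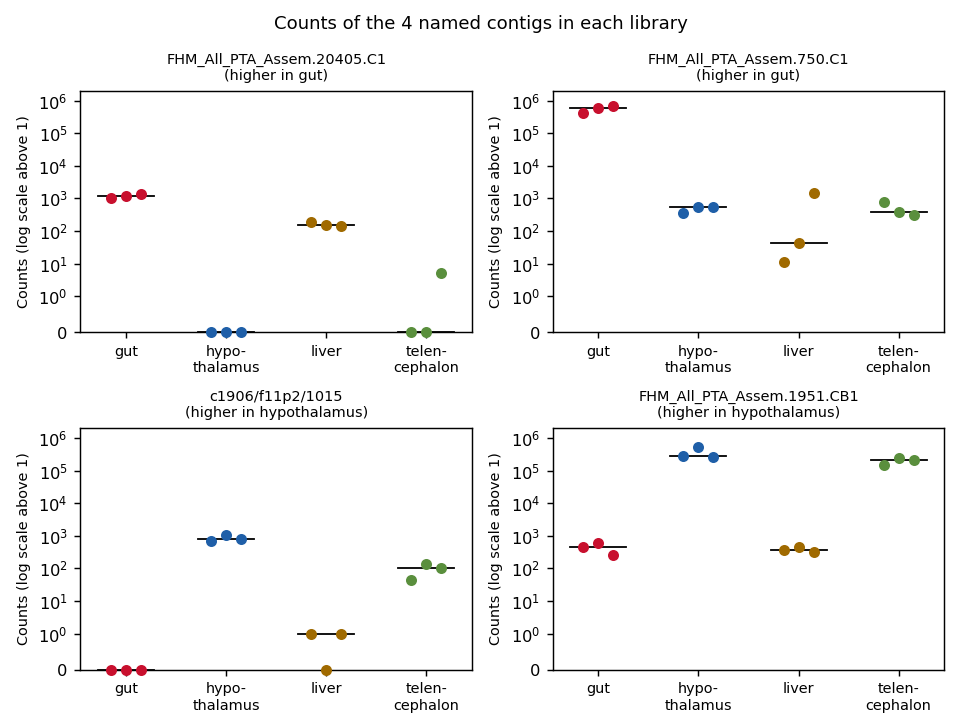
Counts of the 4 named contigs in each library (vertical axis, log scale above 1 and linear below it), with 1 panel per contig, 1 point per replicate in gut, hypothalamus, liver and telencephalon, and a line at the median. FHM_All_PTA_Assem.750.C1 is high in gut and low elsewhere, with 1 liver library above the others, and FHM_All_PTA_Assem.1951.CB1 is high in hypothalamus and telencephalon and low in gut and liver.

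Few contigs had a count in all 3 libraries of a tissue and none in the other, and most of these had low counts. A count in all 3 gut libraries and none in hypothalamus was seen for 250 contigs, of which 180 were called, with a median of 30 counts summed over the gut libraries. The reverse was seen for 745 contigs, of which 467 were called, with a median of 31 counts summed over the hypothalamus libraries. The CPM that 3 counts stand for was higher in gut, and its part in these numbers was not tested. A minimum of 50 counts in each replicate of a tissue and none in the other left 37 contigs for gut and 90 for hypothalamus. All of these were called. The contigs of this paragraph were chosen on the counts that the test used, so their calls are a description only. Among all tested contigs, 12.5% were called higher in gut and 18.0% higher in hypothalamus.

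The same contigs were followed in liver and telencephalon, where 16.5% of all tested contigs were higher in liver and 22.2% in telencephalon. Of the 37 contigs of gut, 17 were called higher in liver than in telencephalon, 0 the other way, and the others were not called. Of the 37, 13 had no count in telencephalon and 8 none in liver, and 4 had none in either. Of the 90 contigs of hypothalamus, 82 were called higher in telencephalon than in liver and 0 the other way, and 65 reached 50 counts in all 3 telencephalon libraries. Only 1 of the 90 had no count in telencephalon, while 37 had none in liver.

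Liver against telencephalon sets another body tissue against another brain region, in libraries that share none with gut against hypothalamus. The fish are the same. By the same test 16573 contigs (38.7%) were called, with 7075 (16.5%) higher in liver and 9498 (22.2%) higher in telencephalon. Without the liver and telencephalon libraries of replicate 2 there were 10983 calls. Of the 5375 contigs higher in gut than in hypothalamus, 2884 (53.7%) were higher in liver than in telencephalon, 278 (5.17%) were higher in telencephalon and 2213 (41.2%) were not called. These 2884 were 40.8% of all contigs higher in liver. Of the 7714 contigs higher in hypothalamus than in gut, 5964 (77.3%) were higher in telencephalon, 268 (3.47%) were higher in liver and 1482 (19.2%) were not called. These 5964 were 62.8% of all contigs higher in telencephalon.

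No test was made of the difference between these shares. The median log2 fold change of liver over telencephalon was 1.53 for contigs higher in gut (quartiles 0.29 and 3.1) and -3.06 for contigs higher in hypothalamus (quartiles -5.38 and -1.45), beside -0.19 over all tested contigs. With library size scaling of liver and telencephalon, 33.8% of the contigs higher in gut were higher in liver and 16.1% in telencephalon. With that scaling, 89.9% of the contigs higher in hypothalamus were higher in telencephalon and 1.74% in liver. Of the contigs not called between gut and hypothalamus, it gave 5.4% higher in liver and 34.9% in telencephalon. With TMM these shares of the uncalled contigs were 13.2% in liver and 10.9% in telencephalon.

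**Figure D5:**
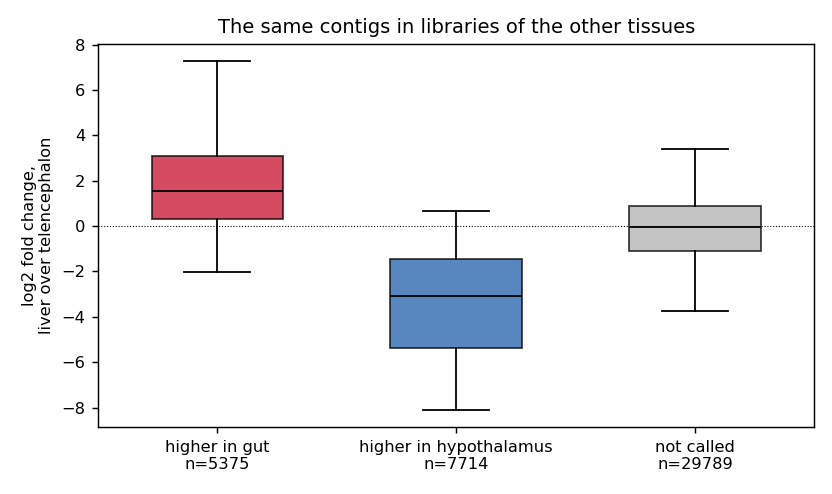
Log2 fold change of liver over telencephalon (vertical axis) for contigs higher in gut (5375), contigs higher in hypothalamus (7714) and contigs not called between these (29789), with boxes at the quartiles, a line at the median and whiskers at the 5th and 95th percentiles over contigs. The median is 1.53 for contigs higher in gut, -3.06 for contigs higher in hypothalamus and -0.04 for contigs not called.

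The levels in the 4 tissues can be set side by side with the 12 libraries scaled together. Contigs higher in gut had a median of 25.2 CPM in gut and 8.48 CPM in liver, against 2.77 CPM in hypothalamus and 2.56 CPM in telencephalon. Contigs higher in hypothalamus had a median of 15.4 CPM in hypothalamus and 15 CPM in telencephalon, against 1.2 CPM in gut and 1.26 CPM in liver. The mean level in telencephalon lay within 2-fold of that in hypothalamus for 6854 (88.9%) of the contigs higher in hypothalamus. The mean level in liver lay within 2-fold of that in gut for 1896 (35.3%) of the contigs higher in gut, more than 10-fold below it for 1143 (21.3%) and more than 2-fold above it for 633 (11.8%). These levels are set against the tissue that chose the contigs and are a description only.

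The contigs come from several sources, and these differed in how many were called. Paracel contigs are assembled from several sequences. Of the 20719 tested, 3255 (15.7%) were higher in gut and 4341 (21.0%) in hypothalamus, and they held 84.8% of gut counts and 81.5% of hypothalamus counts. Single sequences that entered no assembly gave 823 contigs higher in gut (10.9%) and 999 higher in hypothalamus (13.2%) of 7563. PacBio isoforms here are the contigs that kept an isoform name. The authors also passed their isoforms to the Paracel assembler, so Paracel contigs may hold others. The contigs with an isoform name gave 517 higher in gut (11.6%) and 707 higher in hypothalamus (15.9%) of 4456, and 334 contigs of other names gave 36 and 29 in the same order. Expressed sequence tags gave 744 higher in gut (7.59%) and 1638 higher in hypothalamus (16.7%) of 9806, so that 31.2% of their calls were higher in gut, against 41.1% over all contigs.

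Depth differed along with source. The median per library was 177 counts on a Paracel contig, 42.8 on a PacBio isoform, 32 on a single sequence and 20 on an expressed sequence tag, and its part in the shares called was not tested. The order of gut and hypothalamus within a source followed the scaling for Paracel contigs, single sequences and contigs of other names. With upper quartile scaling 3820 Paracel contigs were higher in gut and 3785 in hypothalamus, and for single sequences these were 1020 in gut and 883 in hypothalamus. With library size scaling 28 contigs of other names were higher in gut and 44 in hypothalamus. Expressed sequence tags and PacBio isoforms had more contigs higher in hypothalamus under each of the 4 scalings.

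A length is known only for the contigs that kept a PacBio isoform name, which gives it. Isoforms higher in gut had a median of 1314 bases and those higher in hypothalamus a median of 1334 bases. When the 4456 isoforms were divided by length into 5 classes of about equal size, 10.2% to 13.8% were higher in gut in each class. The share higher in hypothalamus was 13.4% to 15.4% in the 4 classes of shorter isoforms and 21.1% in the longest, of 2096 to 6755 bases. The longest class also had the most counts, with a median of 37.0 in gut and 72.0 in hypothalamus, where the shortest had 19.2 in gut and 30.2 in hypothalamus, and the part of depth was not tested.

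Counts per base allow a rough comparison of isoforms within a tissue. Reads were counted only when they mapped uniquely, so an isoform near-identical to another contig loses reads, and its level is uncertain. Of the 20 isoforms with the highest CPM per 1000 bases in gut, from 288 to 10500, 18 were higher in gut and 2 were not called. Of the 20 highest in hypothalamus, from 166 to 9960, 14 were higher in hypothalamus, 2 in gut and 4 were not called. Over all tested isoforms 11.6% were higher in gut and 15.9% in hypothalamus. These ranks and the calls rest on the same libraries, so the counts are a description. The isoform of 780 bases described above was the first in both tissues, with 6200, 12100 and 13300 CPM per 1000 bases in gut and 6300, 14200 and 9410 in hypothalamus. The replicate numbers of its low values were the same in both tissues, number 1.

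The assembler places contigs that share sequence in a cluster, which can hold variants of a transcript or members of a gene family. Reads were counted only when they mapped uniquely, so contigs of a cluster that are near-identical lose reads, and their values are uncertain. There were 3676 clusters with at least 2 tested contigs, 9209 contigs in all. Of these contigs 29.1% were called, against 42.7% of the 11510 that were the only tested contig of their cluster. Their median counts per library were 64.7 and 318 in the same order, and the part of depth was not tested. No call was made in 1925 of the 3676 clusters. At least 2 calls were made in 731 clusters. In 304 of these every call was higher in gut, in 359 every call was higher in hypothalamus, and in 68 (9.3%) the calls went in both directions. Without gut replicate 2, gut replicate 3 or hypothalamus replicate 3 the number of clusters with calls in both directions was 39, 41 and 38.

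In most of the 731 clusters with at least 2 calls, the calls kept to one tissue. The cluster with most gut calls held 11 tested contigs, and 8 were higher in gut with log2 fold changes of 2.08 to 9.88. Its summed counts were 34593 to 67051 per gut library and 1868 to 2660 per hypothalamus library, and 8 of its contigs were higher in liver than in telencephalon. The cluster with most hypothalamus calls held 15 tested contigs, of which 13 were higher in hypothalamus, with log2 fold changes of -6.81 to -3.04. Summed over its contigs, gut libraries had 320 to 369 counts and hypothalamus libraries 6923 to 9772, and 14 of its contigs were higher in telencephalon than in liver. Both clusters were chosen after their values were seen.

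In other clusters related contigs were higher in different tissues. In a cluster of 4 contigs, also chosen after its values were seen, one contig had 171, 212 and 124 counts in gut and 17, 12 and 19 in hypothalamus (log2 fold change 3.91, SE 0.45, edgeR adjusted p = 0.000262). Another had 6, 6 and 3 counts in gut and 1922, 807 and 2446 in hypothalamus (log2 fold change -7.88, SE 0.58, edgeR adjusted p = 2.8e-05). That contig was also high in telencephalon, with 2109, 2690 and 1769 counts, and low in liver, with 4 in each library. A contig of the same cluster had 37, 48 and 21 counts in gut and 43, 27 and 25 in hypothalamus and did not pass the test (log2 fold change 0.70, edgeR adjusted p = 0.381). The sequences of the contigs were not used here, so whether such clusters hold variants of a gene or related genes is not known. Of the 68 clusters, 60 held a call of at least 2-fold on each side and 34 a call of at least 4-fold on each side.

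A contig without a call was not thereby equal in both tissues. Of 27044 contigs with at least 10 counts on average in both tissues, 17961 were not called, and for 2619 of these (14.6%) the 95% interval of the difference lay within 2-fold in both directions. The median interval reached 1.16 on the log2 scale to either side. With at least 50 counts on average in both tissues, 2617 of 10536 uncalled contigs (24.8%) had an interval within 2-fold. The 2619 contigs with a narrow interval held 15.7% of gut counts and 22% of hypothalamus counts.

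With each replicate number taken as a fish, the fish differed somewhat in how far their tissues lay apart. Of the 22567 contigs that reached 50 counts in 3 or more libraries, gut was at least 2-fold above hypothalamus for 4554 (20.2%) in fish 1, 6002 (26.6%) in fish 2 and 5172 (22.9%) in fish 3. Hypothalamus was at least 2-fold above gut for 5964 (26.4%), 6516 (28.9%) and 6738 (29.9%) in the same order of fish. With TMM scaling, more contigs were higher in hypothalamus than in gut in each fish, and fish 1 had the fewest in both directions. The split of the calls above moved with the scaling, and other scalings were not tried on these pairs. These are single pairs of libraries with no error of their own. A contig could enter this set through the 3 libraries of a single tissue, so the shares are a description.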

How the data were processed

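The authors trimmed the reads with Cutadapt, aligned them with bowtie 2, discarded likely PCR duplicates and counted the reads that mapped to a single place. The methods give both consensus sequences and zebrafish sequences as what reads were aligned to, and the contigs have FHM names. The deposited values are raw counts per contig, not normalized. Their versions were not given in the sources used here.

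Counts of the 12 libraries were joined by contig name. Of the names, 11230 hold a sequence identifier, and 0 matched the 64593 genes of the supplied table (assembly fPimPro1.hap1.1), so no gene list was used. A contig was tested if some tissue had a count on it in 2 or more of its replicates, which held for 42878, and 3431 were left out, with 0.0171% of the counts. Gut and hypothalamus were fitted alone in R 4.3.3 with edgeR 4.0.16 (TMM, robust quasi-likelihood fit, Benjamini-Hochberg, threshold 0.05), and liver and telencephalon likewise. DESeq2 1.42.0 was an alternative, with the exact test of edgeR, a fit of 4 tissues, other scalings and filters, a 2-fold threshold, a replicate block and fits without libraries.

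Tissues came from 3 males by the methods, and replicates are numbered in the labels. Deviations from the tissue mean were correlated across 22567 contigs. They gave r of 0.400, 0.202 and 0.281 between gut and hypothalamus libraries of one number, and -0.276 to 0.0209 between different numbers. Deviations from a mean of 3 libraries cancel out, so positive values within a number go with negative values between numbers. Each number was taken as a fish, which the labels do not state. Replicates of a tissue differed by a chi-square of 39.7 to 80.4 per degree of freedom, so no library was a duplicate.

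Contigs to be named were called, had 50 counts or more in each replicate of the tissue where they were higher and kept one direction in all 3 pairs. The largest fitted log2 fold change and the highest mean CPM were taken per direction, and contigs named by an accession were passed over. The comparison, its rules and its lists were chosen with earlier results of these data known.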

Additional observations from a re-analysis of the deposited data

How the results depend on the processing

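Across 20 alternatives no contig called between gut and hypothalamus was called in the opposite direction, and 56.4% to 98.8% of the 13089 calls were shared, apart from the calls that each alternative added. Single-library leave-outs gave 10004 to 13505 calls, 4097 to 5984 of them higher in gut and 5907 to 7521 higher in hypothalamus. Leaving out both libraries of a number gave 7466 to 10503 calls, 3097 to 4318 higher in gut and 4369 to 6185 higher in hypothalamus. A test against a 2-fold change gave 8976 contigs between gut and hypothalamus, 3493 higher in gut and 5483 higher in hypothalamus. Between liver and telencephalon it gave 10996 contigs in both directions together, and leaving out number 2 gave 10983. For that pair of tissues the range over numbers was 10983 to 14893 and that over single libraries 12946 to 16096. A fit with a replicate block, which pairs the libraries of a number, called 13948 contigs, and it changed the call of none of the 4 named contigs. The other tests and scalings, except the 2-fold test, gave 13019 to 15099 calls, and the other filters on low counts 11532 to 13177. The 4 named contigs kept direction and call in all 20 alternatives. They were chosen for large folds or high levels in these same libraries, so this says little of other calls. Clusters with calls in both directions numbered 28 under the 2-fold test. Without number 3 the calls were 4702 on Paracel contigs, 1315 on expressed sequence tags, 740 on single sequences and 679 on PacBio isoforms. The causes of these shifts were not tested. Uncalled contigs of few counts allow wide differences.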

Other observations

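A small set of contigs divided the tissues the other way. Of the contigs higher in gut than in hypothalamus, 278 (5.17%) were also higher in telencephalon than in liver, with medians of 47.0 CPM in gut, 9.29 in hypothalamus, 9.52 in telencephalon and 1.78 in liver. Of the contigs higher in hypothalamus than in gut, 268 (3.47%) were also higher in liver than in telencephalon, with medians of 2.91 CPM in gut, 18.7 in hypothalamus, 71.4 in liver and 14.6 in telencephalon. Both differences were at least 4-fold for 93 of the 278 and 102 of the 268. One contig, chosen after its values were seen, had 1849, 1150 and 1349 counts in gut, 17, 6 and 11 in hypothalamus, 0 in the 3 liver libraries and 24, 22 and 63 in telencephalon (edgeR adjusted p = 1.07e-05 for gut against hypothalamus and 0.0099 for liver against telencephalon). Another had 0, 0 and 1 counts in gut, 189, 173 and 282 in hypothalamus, 195, 213 and 230 in liver and 0 in the 3 telencephalon libraries (edgeR adjusted p = 0.000132 and 2.4e-05).

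The most abundant contigs of the gut were never at 0 in a brain library. With the 12 libraries scaled together, and not gut and hypothalamus alone, 105 of the contigs called higher in gut had at least 1000 CPM in gut. Their median level in hypothalamus was 0.819%, 1.21% and 0.73% of the gut level in replicates 1, 2 and 3, and the lowest was 0.0144%, 0.0201% and 0.0225%. The number under 0.1% was 24, 25 and 23. In telencephalon the lowest was 0.0235%, 0.0214% and 0.0296%. In liver, 2, 3 and 0 of the same contigs had no count in replicates 1, 2 and 3, and the median was 16.1%, 15.4% and 11.9%. With the same scaling, the 16 contigs higher in hypothalamus with at least 1000 CPM there had a lowest level in gut of 0.182%, 0.227% and 0.107%. The source of these low levels was not tested.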
